A study of Mus musculus with 20 samples.

Results

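The 10 genes described here code for regulators of mitochondrial biogenesis. Ppargc1a, Ppargc1b and Pprc1 encode the PGC-1 coactivators, Nrf1, Gabpa and Gabpb1 the nuclear respiratory factors, and Esrra, Ppara, Pparg and Ppard nuclear receptors. They were listed by name and role, and 10 of 10 were found among the 28632 genes counted in RNAseq libraries of mouse pancreatic islets. Islets came from 12-week-old C57BL/6N mice of both sexes, were isolated with collagenase and were cultured overnight before total RNA was taken. The study asked what β-cells lose without mitofusin 1, mitofusin 2 or both, the proteins that fuse the outer membranes of mitochondria. The 4 groups are Ctrl (6 libraries), β-Mfn1KO (4), β-Mfn2KO (5) and β-Mfn1/2DKO (5). In the knockouts a Cre recombinase knocked into the Ins1 locus removes floxed alleles of Mfn1, Mfn2 or both from β-cells, so the other cells of an islet keep them. Ctrl mice are called wild type in the labels, while the paper pools littermates that carry Cre alone and littermates that carry floxed alleles alone.

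Each library was counted once per gene, and its total gives its depth. Totals (in M, 1e+06 counts) were 12.4 to 20.3 for Ctrl, 15.7 to 16.7 for β-Mfn1KO, 15.1 to 59.5 for β-Mfn2KO and 65.5 to 122.9 for β-Mfn1/2DKO. Every β-Mfn1/2DKO library was deeper than every other library, and β-Mfn2KO replicates 4 and 5 (56.0 and 59.5 M) were the only others above 40 M. Genotype and depth therefore cannot be told apart in the comparisons with Ctrl and with β-Mfn1KO. Against β-Mfn2KO depth follows genotype as well, as every β-Mfn1/2DKO library is the deeper. Only β-Mfn2KO has libraries on both sides of 40 M, so a covariate for depth class takes its value from that group alone. A call lost under it cannot tell depth from genotype. Normalized counts below are counts that TMM in edgeR brought to a library of 41.5 M counts. A gene is called where edgeR's quasi-likelihood test gave a Benjamini-Hochberg adjusted p under 0.05 over all 28632 genes.

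Most proteins of the respiratory chain are encoded in the nucleus, and their genes share binding sequences for a small group of transcription factors. NRF1 and the GABP complex (also named NRF2) bind many of these promoters, the receptor ERRα (Esrra) binds others, and the PGC-1 coactivators bind no DNA themselves but dock on these factors and raise transcription. The PPAR receptors pair with RXR, bind fatty acids and related lipids and control genes of fatty acid oxidation and storage. In β-cells, the paper states, mitochondria supply the energy for insulin release.

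Mfn1 and Mfn2 themselves come before the members. Ctrl libraries held 1518 to 1807 normalized counts of Mfn1, the β-Mfn1KO libraries 770.4, 621, 631 and 674, and the β-Mfn1/2DKO libraries 690.3, 691, 687, 856 and 1062. For Mfn2, Ctrl libraries held 3089 to 4373, β-Mfn2KO libraries 1532, 1586, 1688, 1474 and 1608, and β-Mfn1/2DKO libraries 2022, 2082, 2062, 2131 and 2124. Each knockout lay below every Ctrl library for the gene it targets, and no group reached 0. A count takes in reads from cells without Cre and from exons outside the deleted part. The islet label was checked against marker lists: Ins2 was the most abundant β-cell marker in each library, and the 8 β-cell markers made up 13.9 to 21.7% of counts in Ctrl and 6.46 to 9.49% in β-Mfn1/2DKO.

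Compared per kilobase of the longest protein-coding transcript, the 10 members spanned a wide range of levels in Ctrl. Esrra stood highest with 734 ± 51.9 normalized counts per kilobase (SD, n = 6), followed by Ppard with 656 ± 21.4 and Nrf1 with 498 ± 60.4. Gabpa (303 ± 22.0) and Pprc1 (294 ± 47.5) were closer to each other than their spread, and Ppargc1b (18 ± 3.30) and Ppargc1a (11.9 ± 3.07) were far lower. Pparg had 225 ± 43.8 and Gabpb1 148 ± 11.7, and Ppara was lowest with 4.94 ± 3.09. In β-Mfn1/2DKO the order at the top was different, with Nrf1 at 951 ± 135 per kilobase, Esrra at 783 ± 61.5 and Ppard at 678 ± 25.5 (SD, n = 5). Pparg reached 366 ± 53.7 per kilobase there, above Gabpa and Pprc1 in the same group (292 ± 3.86 and 282 ± 20.3).

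**Figure D1:**
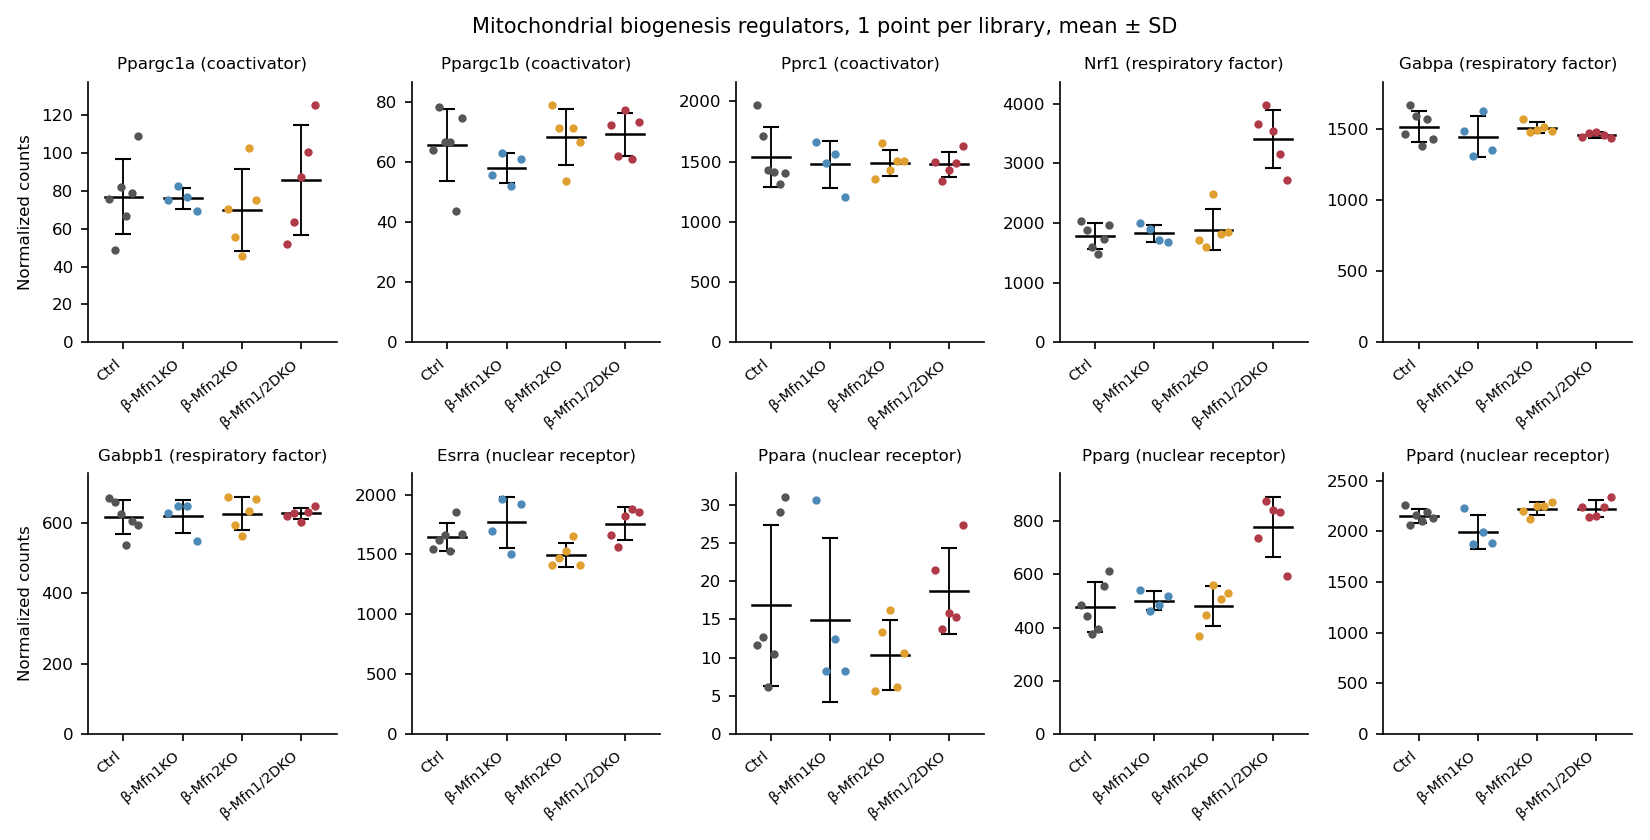
Normalized counts (TMM-scaled) of the 10 regulators in each of the 20 libraries, 1 panel per gene, with the 4 genotype groups on the horizontal axis and bars for the mean ± SD. Nrf1 is higher in all 5 β-Mfn1/2DKO libraries than in the other 15, and Pparg in 4 of the 5.

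Against Ctrl, β-Mfn1/2DKO tests the loss of both mitofusins, and 2 of the 10 members were called, Nrf1 and Pparg, both higher. Over all genes 16.5% were called in this comparison, 9.59% higher and 6.86% lower, and 33.6% among genes whose mean reached 100 normalized counts. Of the members 7 pass that mean, which puts 2 of 7 near the share of such genes, so the count itself is no result about the members. The median log2 fold change of the 10 members was 0.08, beside 0.06 for all genes, and 8 of 10 lay above 0. Total-count scaling lifted the median of genes with a mean of at least 100 from 0.03 to 0.17 and the share of higher genes among the calls from 58.3 to 85.0%, and under it Esrra (0.23, adjusted p = 0.0170) and Ppard (0.19, adjusted p = 0.0140) were called too. The authors' normalization factors gave 48.2% higher among the calls and the same 2 members.

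Against Ctrl, β-Mfn2KO had 0 of 10 members called by edgeR's quasi-likelihood test, 0 at an unadjusted p under 0.05 and 0 by DESeq2. Of all genes 0.0559% were called by edgeR and 0.0768% by DESeq2. The members' median was 0.01, beside 0.02 for all genes. β-Mfn1KO also had 0 of 10 called against Ctrl, with 1 at an unadjusted p under 0.05 (Ppard) and 0 by DESeq2. Of all genes edgeR called 0.0279% and DESeq2 0.0873%. Here the median was −0.03, beside 0.00 for all genes. Adding the loss of Mfn1 to that of Mfn2 is the comparison of β-Mfn1/2DKO with β-Mfn2KO, in which 3 of 10 were called (Nrf1, Esrra and Pparg) against 13.0% of all genes. Adding the loss of Mfn2 to that of Mfn1 is the comparison of β-Mfn1/2DKO with β-Mfn1KO, in which 3 of 10 were called (Nrf1, Pparg and Ppard) against 17.4% of all genes. Of genes with a mean of at least 100, 14.9% were higher and 11.7% lower against β-Mfn2KO, and 19.3 and 15.9% against β-Mfn1KO, so these counts are no result about the members. All these calls were higher in β-Mfn1/2DKO, with member medians of 0.12 and 0.16 beside 0.00 and 0.09 for all genes. The β-Mfn1/2DKO libraries are shared by 3 comparisons and the Ctrl libraries by 3, so their values are not independent of each other. Total-count scaling raised the share of higher calls from 54.6 to 81.2% against β-Mfn2KO and from 55.7 to 83.3% against β-Mfn1KO. The interaction asks whether the effect of losing Mfn1 differs with Mfn2 present or absent. It had 1 of 10 called (Nrf1) against 5.92% of all genes, with 48.8% of the calls positive under TMM, 80.9% under total-count scaling and 40.7% with the authors' factors.

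**Figure D2:**
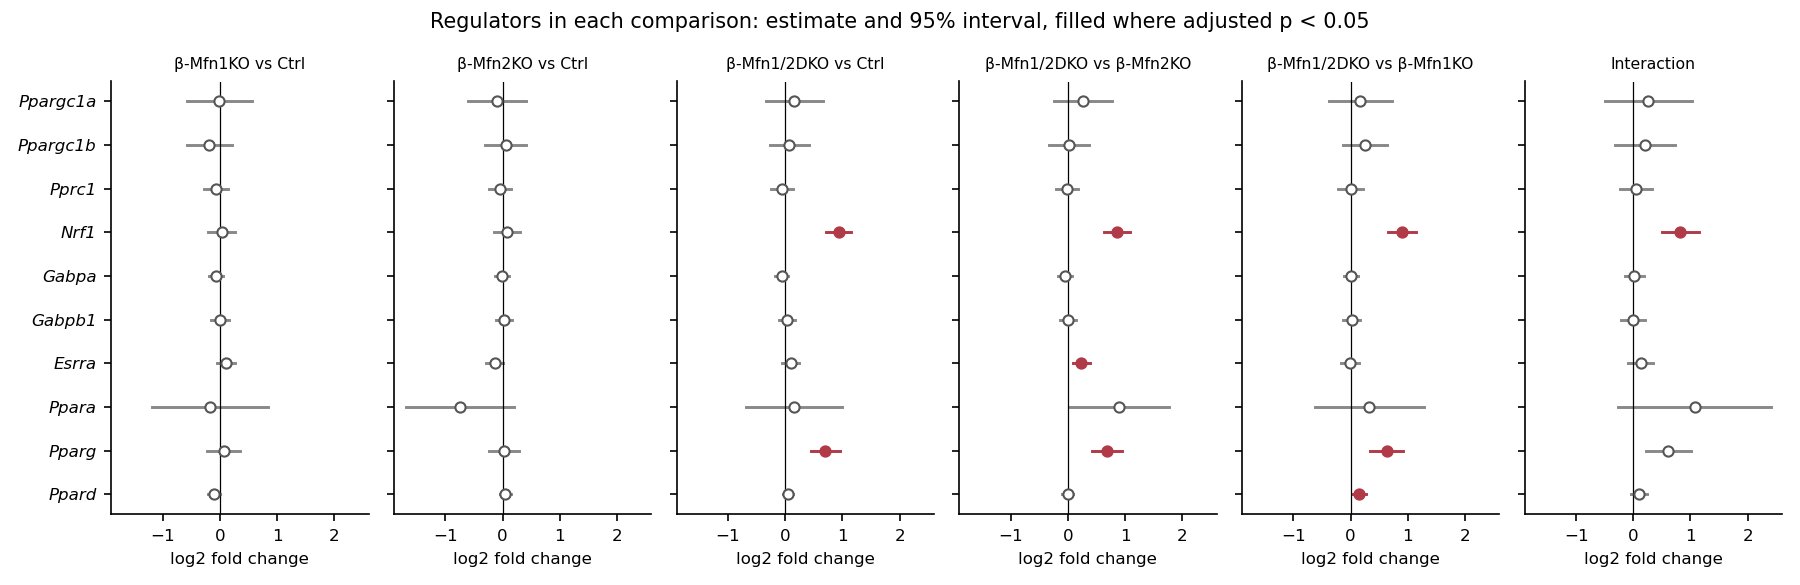
Log2 fold change of each of the 10 regulators with its 95% interval in 6 comparisons, filled where the adjusted p is under 0.05. Nrf1 and Pparg stand apart from 0 in the 3 comparisons with β-Mfn1/2DKO, and the intervals of Ppargc1a and Ppara are the widest.

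The coactivators come first. Ppargc1a (ENSMUSG00000029167, GRCm38 chromosome 5, 51454250–51567726) encodes PGC-1α, the inducible coactivator best known for driving mitochondrial biogenesis. It lay between 48.7 and 109 normalized counts in Ctrl (median 77.1), at 75.4, 82.5, 77.0 and 69.3 in β-Mfn1KO, at 70.5, 55.8, 45.8, 102 and 75.3 in β-Mfn2KO and at 52.0, 63.6, 87.1, 100.3 and 125 in β-Mfn1/2DKO. The groups overlapped, and only β-Mfn1/2DKO replicate 5 stood above every other library. Raw counts behind these values were 19 to 35 in Ctrl and 138 to 256 in β-Mfn1/2DKO, so the shallow libraries carry the larger counting error. On the log2 scale β-Mfn1/2DKO differed from Ctrl by 0.16 (95% interval −0.33 to 0.66, adjusted p = 0.708), −0.47 with depth class as a covariate and −0.15 without β-Mfn1/2DKO replicates 4 and 5, with no call under any alternative.

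Ppargc1b (ENSMUSG00000033871, chromosome 18, 61298136–61400431) encodes PGC-1β, which binds many of the same factors. Its values ran from 43.7 to 78.3 in Ctrl (median 66.8), and were 55.8, 63.2, 52.2 and 61.0 in β-Mfn1KO, 79.0, 71.5, 53.8, 71.3 and 66.7 in β-Mfn2KO and 72.3, 62.2, 77.3, 61.1 and 73.5 in β-Mfn1/2DKO. All 4 groups overlapped, and the lowest value of the 20 was a Ctrl library. Against Ctrl the log2 fold change in β-Mfn1/2DKO was 0.07 (95% interval −0.27 to 0.42). Pprc1 (ENSMUSG00000055491, chromosome 19, 46044886–46072915) encodes PRC, a coactivator of the same family that answers to growth signals. It stood between 1314 and 1968 in Ctrl (median 1421), at 1661, 1485, 1559.6 and 1203 in β-Mfn1KO, at 1354, 1653, 1427, 1504 and 1504 in β-Mfn2KO and at 1499.9, 1338, 1431, 1487 and 1629 in β-Mfn1/2DKO. Ctrl covered the whole range of β-Mfn1/2DKO, with Ctrl replicate 1 the highest of all. The log2 fold change was −0.06 (95% interval −0.25 to 0.13), which leaves out a change of the size seen for Nrf1. Counts of Pprc1 carry some doubt, as its exons share 177 bases with Ldb1 on the opposite strand, which had 380% as many counts, and whether counting was stranded is not known.

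Nrf1 (ENSMUSG00000058440, chromosome 6, 30047988–30153458) encodes nuclear respiratory factor 1, which binds the promoters of many respiratory chain genes and of the mtDNA transcription factor Tfam. It stood between 1480.3 and 2041 normalized counts in Ctrl (median 1810.2), at 1996, 1903, 1721 and 1677 in β-Mfn1KO, at 1712, 1597, 2482, 1818 and 1842 in β-Mfn2KO and at 3657, 3974, 3539.6, 3149 and 2726 in β-Mfn1/2DKO. The lowest β-Mfn1/2DKO library lay above the highest of the other 15, which was β-Mfn2KO replicate 3, and the single knockouts overlapped Ctrl. Raw counts in β-Mfn1/2DKO were 4376 to 11895. Nrf1 rose by 0.93 on the log2 scale against Ctrl (95% interval 0.72 to 1.15, adjusted p = 1.76e-06), by 0.85 against β-Mfn2KO (0.63 to 1.08, adjusted p = 1.49e-05) and by 0.90 against β-Mfn1KO (0.66 to 1.15, adjusted p = 1.1e-05). In β-Mfn2KO it differed from Ctrl by 0.08 (95% interval −0.14 to 0.30) and in β-Mfn1KO by 0.03 (−0.21 to 0.27), so both intervals end well under the size of the change in β-Mfn1/2DKO. The change was called under each of 13 alternatives, from 0.90 to 1.08, and with any 1 library left out, from 0.89 to 1.0. In the deep libraries alone (5 β-Mfn1/2DKO, which were still the deeper, against 2 β-Mfn2KO) it was 0.95 (adjusted p = 0.00667). No 75-base stretch of Nrf1 occurs in another gene's transcripts, and no annotated gene overlaps its exons.

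The promoter window of Nrf1 is shown because Nrf1 had the largest change among the members called against Ctrl. RefSeq on GRCm38.p6 gives 2 windows, each from 250 bases before to 50 after a start, and the first is printed (chr6:30047738-30048037, plus strand, 5′ to 3′). It is all in lower case because it holds none of the 4 motifs searched (spelled out with the respiratory chain genes), and this says only that these letters are not in this window.
Nrf1: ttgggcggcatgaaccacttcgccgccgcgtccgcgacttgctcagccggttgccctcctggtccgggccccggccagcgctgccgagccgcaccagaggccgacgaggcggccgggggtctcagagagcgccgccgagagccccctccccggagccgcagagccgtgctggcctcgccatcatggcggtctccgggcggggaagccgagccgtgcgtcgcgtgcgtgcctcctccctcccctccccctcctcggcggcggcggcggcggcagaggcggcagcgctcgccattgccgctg

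Gabpa (ENSMUSG00000008976, chromosome 16, 84834925–84863779) encodes the DNA-binding subunit of the GABP complex and Gabpb1 (ENSMUSG00000027361, chromosome 2, 126627442–126676337) its activating partner. Gabpa lay between 1375 and 1665 normalized counts in Ctrl (median 1512), at 1482, 1312, 1627 and 1353 in β-Mfn1KO, at 1571, 1477, 1489, 1509.6 and 1487 in β-Mfn2KO and at 1442, 1468, 1479, 1453 and 1431 in β-Mfn1/2DKO. The β-Mfn1/2DKO libraries lay closest together (SD 19.2) and inside the range of Ctrl (SD 109.6). Against Ctrl the log2 fold change was −0.06 (95% interval −0.17 to 0.06). Gabpb1 lay between 537 and 672 in Ctrl (median 616), at 628, 649, 648 and 549 in β-Mfn1KO, at 674, 594, 563, 634 and 666 in β-Mfn2KO and at 619.9, 629, 603, 632 and 649 in β-Mfn1/2DKO. All groups overlapped, and the log2 fold change was 0.02 (95% interval −0.12 to 0.16). Neither gene was called in any of the 6 comparisons. Gabpa is less certain because it shares 397 exon bases with Atp5j, a respiratory chain gene on the opposite strand with 258% as many counts.

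Among the nuclear receptors, Esrra (ENSMUSG00000024955, chromosome 19, 6910977–6921813) encodes ERRα, an orphan receptor that works with PGC-1 on respiratory chain genes. It lay between 1526 and 1851 normalized counts in Ctrl (median 1638), at 1692, 1961, 1505 and 1921 in β-Mfn1KO, at 1411, 1468, 1529, 1652 and 1413 in β-Mfn2KO and at 1658, 1564, 1824, 1878 and 1857 in β-Mfn1/2DKO. Of the β-Mfn2KO libraries 3 of 5 lay below all Ctrl, and of the β-Mfn1/2DKO libraries 4 of 5 lay above all β-Mfn2KO and 2 of 5 above all Ctrl. Against Ctrl the log2 fold change was 0.09 in β-Mfn1/2DKO (95% interval −0.05 to 0.24) and −0.14 in β-Mfn2KO (−0.28 to 0.01). Between β-Mfn1/2DKO and β-Mfn2KO it was 0.23 (0.08 to 0.38, adjusted p = 0.0355), and this call was lost under 7 of 14 alternatives, with adjusted p from 0.00188 to 0.280 over them. Among the deep libraries alone the difference was 0.24 with an adjusted p of 0.150. The call was also lost without β-Mfn2KO replicate 1 (0.21), 2 (0.22) or 5 (0.23), or β-Mfn1/2DKO replicate 4 (0.22) or 5 (0.21). Esrra shares 73 exon bases with Trmt112 on the opposite strand, which had 137% as many counts.

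Ppara (ENSMUSG00000022383, chromosome 15, 85734983–85802819) encodes PPARα, the receptor that drives fatty acid oxidation in liver. It was near the limit of counting, from 6.08 to 31.1 normalized counts in Ctrl (median 12.2), at 30.7, 8.20, 12.4 and 8.30 in β-Mfn1KO, at 5.6, 13.4, 16.2, 6.10 and 10.6 in β-Mfn2KO and at 21.5, 13.8, 15.9, 15.3 and 27.4 in β-Mfn1/2DKO. The groups overlapped, and Ctrl replicates 5 and 6 and β-Mfn1KO replicate 1 stood highest. Its interval for β-Mfn1/2DKO against Ctrl ran from −0.68 to 0.98 around 0.15, which takes in changes as large as that of Nrf1. Ppard (ENSMUSG00000002250, chromosome 17, 28232700–28301474) encodes PPARδ, the most widely expressed of the 3 PPARs. It stood between 2058 and 2256 in Ctrl (median 2145), at 2233, 1878, 1994 and 1879 in β-Mfn1KO, at 2200.4, 2122, 2253, 2253 and 2294 in β-Mfn2KO and at 2241, 2138, 2146, 2244 and 2341 in β-Mfn1/2DKO. Of the β-Mfn1KO libraries 3 of 4 lay below all Ctrl (log2 fold change −0.11, with an adjusted p of 0.668 in edgeR's quasi-likelihood test). Between β-Mfn1/2DKO and β-Mfn1KO the difference was 0.15 (0.05 to 0.26, adjusted p = 0.0399), a call lost under 9 of 13 alternatives with adjusted p up to 0.655, the replicate number as a block among them (0.14, adjusted p = 0.0667). It was lost as well without β-Mfn1KO replicate 2 (0.13), 3 (0.15) or 4 (0.13), β-Mfn2KO replicate 4 (0.15) or β-Mfn1/2DKO replicate 5 (0.14). Against Ctrl the interval in β-Mfn1/2DKO was −0.05 to 0.14 around 0.05.

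Pparg (ENSMUSG00000000440, chromosome 6, 115360951–115490399) encodes PPARγ, the receptor of adipocyte differentiation and lipid storage. It stood between 377 and 613 normalized counts in Ctrl (median 464), at 542, 462, 484 and 518 in β-Mfn1KO, at 369.6, 447, 559.9, 507 and 529 in β-Mfn2KO and at 738, 876, 843, 836 and 596 in β-Mfn1/2DKO. In β-Mfn1/2DKO 4 of 5 libraries lay above all other 15, and the fifth, replicate 5, lay below Ctrl replicate 6 and above every single knockout. Pparg rose by 0.70 against Ctrl (95% interval 0.45 to 0.96, adjusted p = 0.000295), by 0.68 against β-Mfn2KO (0.42 to 0.95, adjusted p = 0.000772) and by 0.63 against β-Mfn1KO (0.35 to 0.92, adjusted p = 0.00219). In the single knockouts the differences from Ctrl were 0.02 (−0.24 to 0.28) and 0.07 (−0.22 to 0.35). With any 1 library left out the change from Ctrl stayed called, between 0.64 and 0.79. With depth class (above or below 40 M counts) as a covariate it was 0.53 and lost its call (adjusted p = 0.271), the only 1 of 13 alternatives to do so, and against β-Mfn1KO it was 0.46 (adjusted p = 0.338). Its error against Ctrl grew from 0.12 to 0.22 with that covariate. Against β-Mfn2KO, the group with libraries on both sides of that line, the same covariate gave 0.59 (adjusted p = 0.0414). The 6 adipocyte markers found in the table summed to at most 0.000119% of a library's counts, with 2 to 5 of the 6 at 0 in each library.

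The promoter window of Pparg is shown as that of the other member called against Ctrl. RefSeq gives 3 windows, and the first is printed (GRCm38, chr6:115360894-115361193, plus strand). It holds none of the 4 motifs either and is in lower case throughout.
Pparg: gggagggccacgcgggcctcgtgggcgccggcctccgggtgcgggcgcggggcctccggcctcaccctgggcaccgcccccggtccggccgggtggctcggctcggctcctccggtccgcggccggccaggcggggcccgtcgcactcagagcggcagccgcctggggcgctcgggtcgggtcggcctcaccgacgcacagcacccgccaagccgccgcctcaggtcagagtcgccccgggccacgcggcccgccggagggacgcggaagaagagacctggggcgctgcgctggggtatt

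Whether the loss of Mfn1 acts differently with and without Mfn2 was tested for each member by the interaction. Nrf1 had 0.82 (95% interval 0.49 to 1.15, adjusted p = 0.00286), called under each of 12 alternatives and with any 1 library left out (0.77 to 0.96). Pparg had 0.61 (0.22 to 1.0) with an adjusted p of 0.0558 in edgeR's quasi-likelihood test, outside the threshold. It was inside it without Ctrl replicate 3 (0.67) or 4 (0.66), β-Mfn2KO replicate 3 (0.69) or 5 (0.68) or β-Mfn1/2DKO replicate 5 (0.70), and under 5 of 12 alternatives. The other 8 members ran from −0.01 (Gabpb1) to 1.07 (Ppara, interval −0.26 to 2.41), with 0 called by edgeR's quasi-likelihood test, 0 at an unadjusted p under 0.05 and 0 by DESeq2.

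For each called member the genes with the most like pattern over the 20 libraries were found as those with the smallest root mean square difference in log2 level relative to the Ctrl mean. For Nrf1 these were Tcea1 (difference 0.10), Mknk1 (0.12) and Agap1 (0.12), with log2 fold changes of 0.89, 0.85 and 0.98 in β-Mfn1/2DKO against Ctrl. For Pparg those given are Leprotl1 (0.16) and Dnaja3 (0.16), with log2 fold changes of 0.60 and 0.66. These genes were picked over the same 20 libraries, so their fold changes restate the choice.

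The members were set against the 82 nuclear genes of respiratory chain subunits and cytochrome c. In β-Mfn1/2DKO against Ctrl 24 of 82 were called, 3 higher and 21 lower, which is 3.66 and 25.6% beside 9.59 and 6.86% of all genes, or 19.5 and 14.0% of genes with a mean of at least 100. Their median log2 fold change was −0.09 beside 0.06 for all genes, and under total-count scaling the calls became 12 higher and 10 lower. That scaling also raised the median of other genes and the share of higher calls over all genes, as given above. The shift is therefore not particular to the chain. Complex I had 2 higher and 9 lower of 37 genes (median −0.02), complex II 0 and 1 of 4, complex III 0 and 2 of 9 (−0.09), complex IV 1 and 4 of 14 (−0.16) and complex V 0 and 5 of 17 (−0.15). Cycs, the only cytochrome c gene listed, was not called in the fit used throughout but was by DESeq2, and in edgeR with filterByExpr or the replicate number as a block. Leaving out β-Mfn1/2DKO replicates 4 and 5 gave 7 higher and 12 lower. The count of 3 higher became 5 without Ctrl replicate 6, β-Mfn2KO replicate 3 or β-Mfn2KO replicate 5, and 7 without β-Mfn1/2DKO replicate 5. So where Nrf1 rose in all 5 libraries, the chain genes that were called were mostly lower under every scaling except total counts. The total of 24 of 82 is no result about the chain, as 33.6% of genes with a mean of at least 100 were called.

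**Figure D3:**
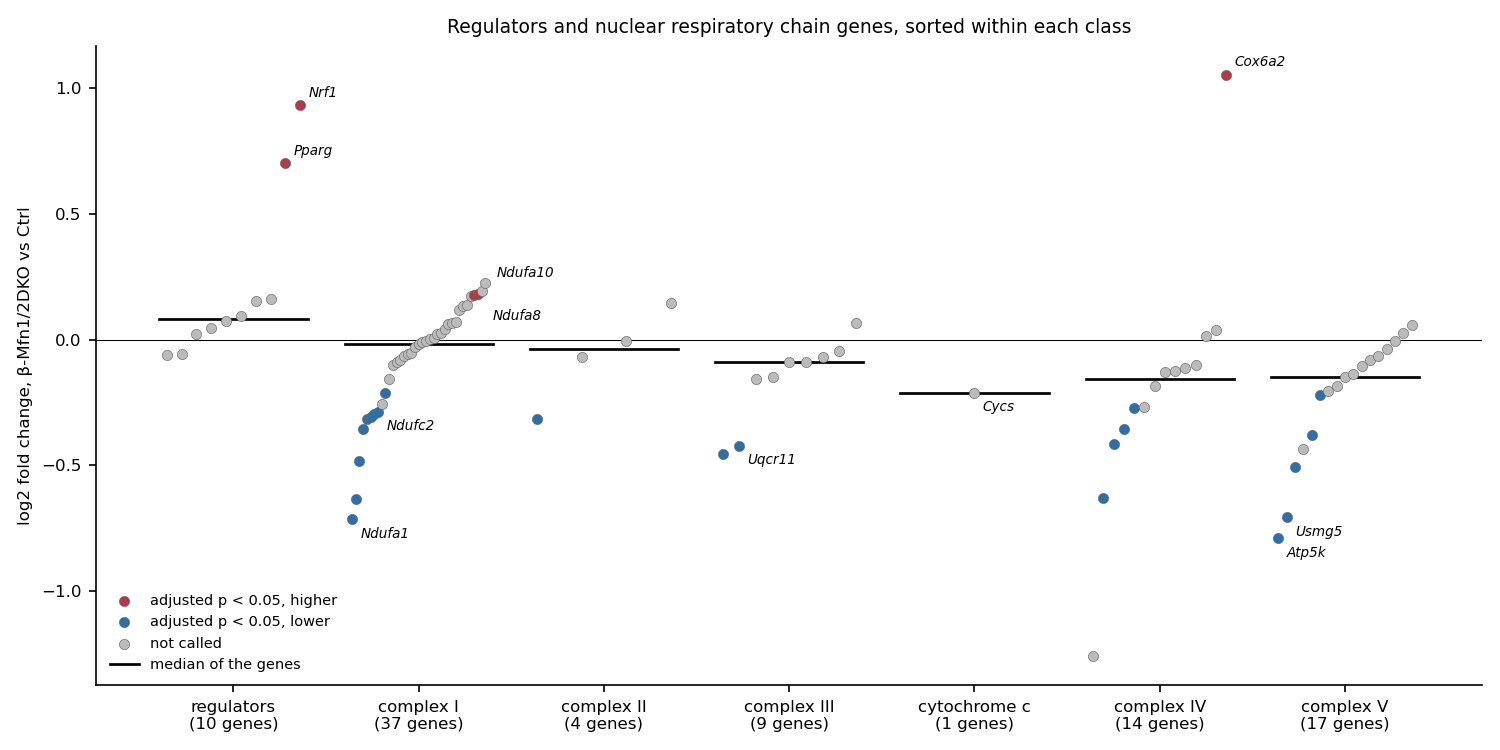
β-Mfn1/2DKO against Ctrl as log2 fold change for the 10 regulators and 82 respiratory chain genes, 1 point per gene, grouped by complex and coloured by call, with a line at each group's median. Points of complexes III to V lie mostly under 0 with TMM scaling. Total-count scaling, which raises genes in general, brings the mean level of the whole chain near 0.

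Against Ctrl, β-Mfn2KO had 0 of 82 chain genes called by edgeR's quasi-likelihood test, 0 at an unadjusted p under 0.05 and 0 by DESeq2 (median −0.02). β-Mfn1KO had 0 of 82 called, with 25 at an unadjusted p under 0.05 and 0 by DESeq2, and 78 of 82 lay above 0 (median 0.12 beside 0.00 for all genes). Of the 12274 genes with a mean of at least 100, 1455 had an unadjusted p under 0.05 and 6439 lay above 0. Between β-Mfn1/2DKO and β-Mfn2KO 2 were higher and 18 lower (median −0.07), or 2.44 and 22.0% beside 7.09 and 5.90% of all genes. With total counts 10 were higher and 7 lower, while the share of higher calls over all genes rose too. Under TMM there were 7 higher and 7 lower without β-Mfn1/2DKO replicates 4 and 5. Without β-Mfn2KO replicate 5 there were 4 and 11, without β-Mfn2KO replicate 1 there was 1 higher, and without β-Mfn1/2DKO replicate 5 there were 8. Between β-Mfn1/2DKO and β-Mfn1KO 0 were higher by edgeR's quasi-likelihood test, 0 by DESeq2 and 1 without β-Mfn1/2DKO replicate 5, and 40 were lower (48.8%, median −0.25, 55 of either direction at an unadjusted p under 0.05), beside 7.69% of all genes and 15.9% of those with a mean of at least 100. Total-count scaling gave 14 lower and 6 higher there, and raised the share of higher calls over all genes as well. In the interaction 18 were called (22.0%), all negative with TMM (median −0.22), beside negative calls for 3.03% of all genes and 6.65% of those with a mean of at least 100, where the members' own median was 0.16.

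The mean log2 level of the 82 genes, relative to the Ctrl mean, gives 1 value per library. Ctrl lay between −0.09 and 0.11, β-Mfn1KO at 0.14, 0.22, −0.03 and 0.15, β-Mfn2KO at −0.19, −0.07, −0.19, 0.08 and 0.14, and β-Mfn1/2DKO at −0.15, 0.03, −0.14, −0.07 and −0.31. The group means were 0.12 ± 0.10 (SD, n = 4), −0.05 ± 0.15 (SD, n = 5) and −0.13 ± 0.13 (SD, n = 5), and each group overlapped Ctrl (SD 0.08, n = 6). By complex the β-Mfn1/2DKO mean was lowest for complex V (−0.23 ± 0.13), then complex III (−0.16 ± 0.12), complex IV (−0.13 ± 0.14) and complex I (−0.08 ± 0.13), and with total-count scaling the mean over all 82 was 0.01. For complex I replicate 5 was at −0.28, and the other β-Mfn1/2DKO libraries at −0.08, 0.08, −0.09 and −0.03. Replicate 5 was also the lowest of the 5 libraries over all 82, so it weighs most in both means. In the same libraries Nrf1 was 0.93 higher than in Ctrl on the log2 scale. Within β-Mfn1/2DKO, Nrf1 and the chain level were both highest in replicate 2 (3974 normalized counts and 0.03). Both were lowest in replicate 5 (2726 and −0.31), and the libraries between did not keep the same order. A link between Nrf1 and the chain was not tested. β-Mfn2KO replicates 4 and 5, the deeper ones, had the highest chain levels of their group, and the part of depth in this was not tested.

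**Figure D4:**
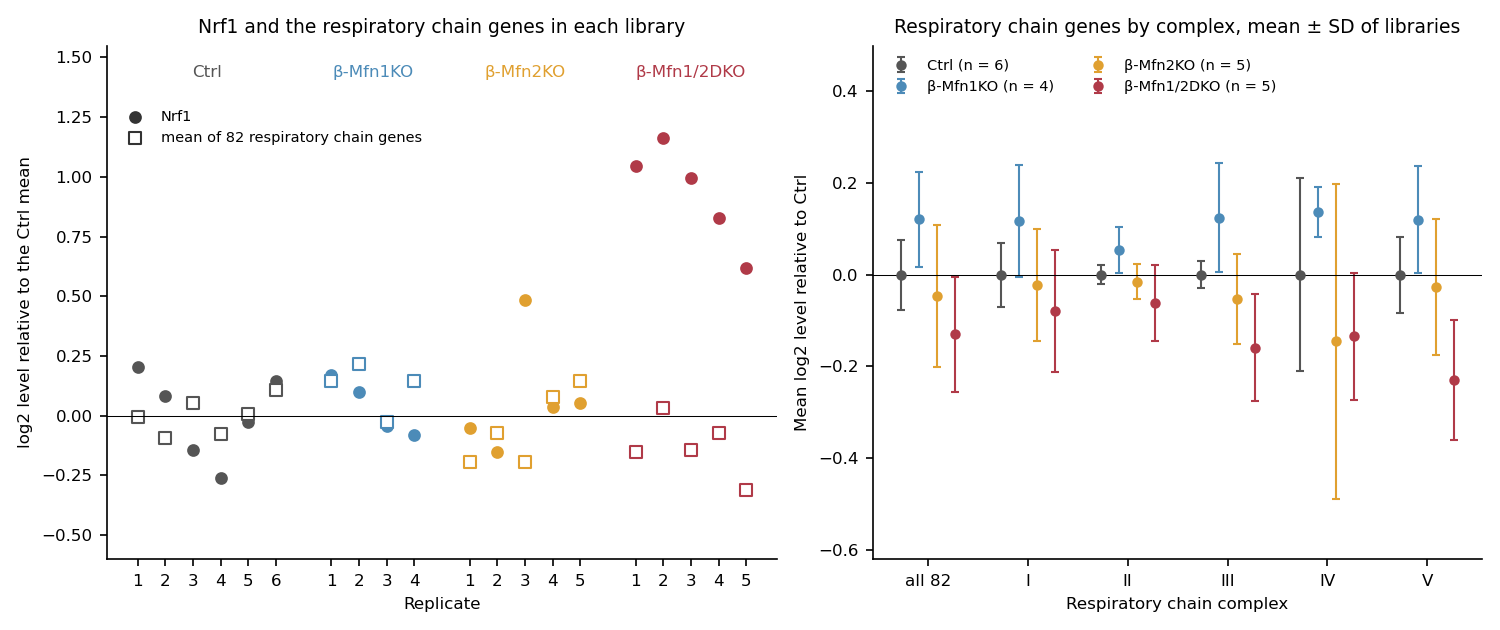
Left, log2 level relative to the Ctrl mean of Nrf1 (circles) and of the mean of the 82 respiratory chain genes (squares) in each library by group. Right, the mean log2 level of the chain genes by complex in each group with SD, near or under 0 in β-Mfn1/2DKO with TMM scaling and 0.01 over all 82 with total counts.

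The chain genes named are the 3 with the largest rise and the 3 with the largest fall among the calls with a mean of 100 or more. The most abundant gene of each complex is named as well. Cox6a2, the muscle-type subunit 6a of complex IV, averaged 551 ± 186 normalized counts in the 6 Ctrl libraries (SD) and 1144 ± 316 in the 5 β-Mfn1/2DKO libraries (SD), a log2 fold change of 1.05 (adjusted p = 0.000884), with β-Mfn1/2DKO replicate 5 at 689 inside the range of Ctrl. Ndufa10 (0.18, adjusted p = 0.0224) and Ndufa8 (0.18, adjusted p = 0.0216), both of complex I, were the other 2 higher. The call of Ndufa10 was lost without Ctrl replicate 1 (0.17) or 2 (0.16), and with DESeq2 size factors (0.15). Ndufa8 lost its call with DESeq2 size factors (0.15) and thinned counts (0.13), and with depth class all 3 lost theirs (Cox6a2 0.95, Ndufa10 0.11, Ndufa8 0.09). Atp5k fell from 554 ± 124 to 319 ± 51.6 (−0.79, adjusted p = 0.00851), Ndufa1 from 2132 ± 202 to 1299 ± 132 (−0.71, adjusted p = 2.67e-05) and Usmg5 from 2612 ± 295 to 1601 ± 104 (−0.71, adjusted p = 0.000559). With the authors' factors Usmg5 was at −0.23 (adjusted p = 0.0786) and Atp5k at −0.33 (adjusted p = 0.102), and Atp5k also lost its call without β-Mfn1/2DKO replicates 4 and 5 (adjusted p = 0.0507). Atp5k and Usmg5 code for small subunits of complex V and Ndufa1 for a small subunit of complex I. All 5 β-Mfn1/2DKO libraries lay below all Ctrl for Ndufa1 and Usmg5, and 3 of 5 for Atp5k. Of the most abundant per length, Ndufc2 (−0.29, adjusted p = 0.00271) and Uqcr11 (−0.42, adjusted p = 0.00213) fell, but Uqcr11 was at −0.13 (adjusted p = 0.339) with the authors' factors and Ndufc2 at −0.14 (adjusted p = 0.145) with total counts. Sdha (−0.01, 95% interval −0.14 to 0.12), Cox4i1 (0.01, −0.13 to 0.16), Cycs (−0.21, −0.39 to −0.04, adjusted p = 0.0979) and Atp5b (−0.14, −0.25 to −0.02, adjusted p = 0.116) had no call by edgeR's quasi-likelihood test. DESeq2 called Cycs (adjusted p = 0.0241) and Atp5b (adjusted p = 0.00245), as did 4 other alternatives each. Of the 75-base stretches of Cycs 23.9% also occur in other genes, and of those of Usmg5 5.56%, so their counts are less certain.

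Transcript length was read beside these changes because many chain genes are short. Among genes with a longest transcript of up to 1000 bases, 44 of the chain genes had a median of −0.12 (2 higher and 12 lower, 4.55 and 27.3%) and 552 genes with a mean of at least 100 in this bin 0.04 (19.0 and 12.5%). From 1000 to 2000 bases the medians were −0.02 for 24 chain genes and 0.08 for the 2191 such genes of that bin, with 12.5% of the chain genes lower (3 of 24) beside 9.86%. In that bin 0 of 24 chain genes were higher, beside 24.1%. The bins above hold only 9 and 2 chain genes (medians −0.09 and −0.41). Of these 3 of 9 and 2 of 2 were lower (33.3 and 100%), beside 14.3 and 15.6% of such genes in the same bins. Higher were 1 of 9 and 0 of 2, beside 20.8 and 17.4%. The part of length in the lower calls was not tested.

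Promoters were searched on both strands for 4 sequences known to bind these factors, GCATGCGC for NRF1, CCGGAAGT for GABP and other ETS factors, TCAAGGTCA for ERR and AAGATGGCG for YY1. RefSeq windows were matched for 66 of 82 chain genes and 9 of 10 members, with none for Ppargc1b. The NRF1 letters were in the windows of 11 chain genes (16.7%) and of 3.05% of all 27025 genes, and the GABP letters in 5 (7.58%) and 4.31%. The ERR letters were in 2 (3.03%) and 0.466%, and the YY1 letters in 7 (10.6%) and 1.64%. Any of the 4 was in 24 chain genes (36.4%) and in 8.93% of all genes. Among members the NRF1 letters were in the windows of Esrra (position −34, counted from 0 at the start site) and Ppara (−31 and −29, overlapping on the 2 strands), and the YY1 letters in that of Gabpa (−68). The Gabpa match is also that of Atp5j at −88, since the windows of these neighbours overlap. The NRF1 letters can match both strands with overlap, which made 6 pairs here. A match is a description, not a site or a cause.

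**Figure D5:**
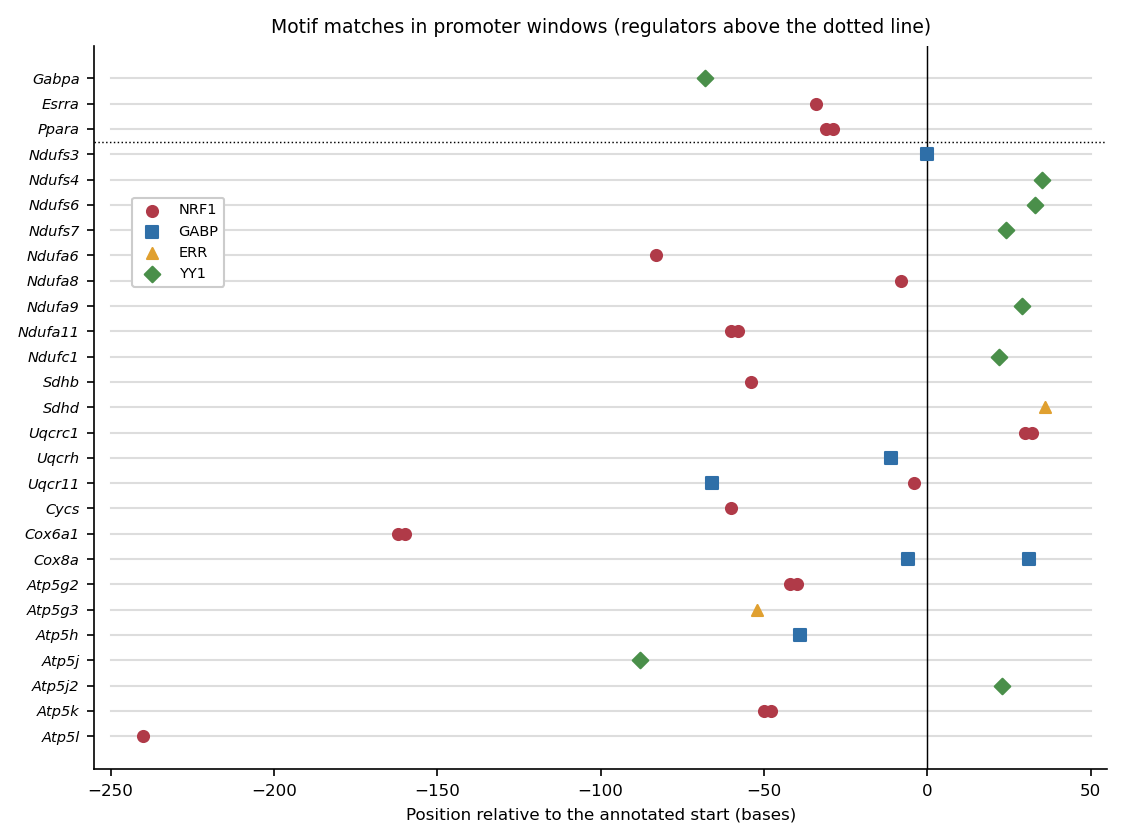
Positions of the 4 motifs in the window around the start site, in bases from the start, in 3 regulators and 24 respiratory chain genes, 1 line per gene and 1 colour per motif. NRF1 letters lie before the start in most of the genes that hold them, and YY1 letters lie 22 to 35 bases after it in 6 of the 7 chain genes that hold them.

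The windows of 4 chain genes named above are shown because they hold NRF1 letters beside a gene called higher with TMM, Ndufa8, and others that fell or had no call, while Nrf1 itself was higher in every β-Mfn1/2DKO library. Capitals mark the matches: NRF1 at −8 in Ndufa8, a pair of overlapping NRF1 matches at −50 and −48 in Atp5k, GABP at −66 and NRF1 at −4 in Uqcr11, and NRF1 at −60 in Cycs. All 4 are on the minus strand of GRCm38 and are written 5′ to 3′ on it, from chr2:36049289-36049588, chr5:108434350-108434649, chr10:80406772-80407071 and chr6:50566520-50566819 in this order.
Ndufa8: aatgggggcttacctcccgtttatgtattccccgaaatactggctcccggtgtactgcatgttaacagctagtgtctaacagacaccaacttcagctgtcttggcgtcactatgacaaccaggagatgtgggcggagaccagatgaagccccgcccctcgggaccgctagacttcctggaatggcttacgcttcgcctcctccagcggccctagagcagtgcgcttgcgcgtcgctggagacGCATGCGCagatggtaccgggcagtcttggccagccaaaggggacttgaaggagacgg
Atp5k: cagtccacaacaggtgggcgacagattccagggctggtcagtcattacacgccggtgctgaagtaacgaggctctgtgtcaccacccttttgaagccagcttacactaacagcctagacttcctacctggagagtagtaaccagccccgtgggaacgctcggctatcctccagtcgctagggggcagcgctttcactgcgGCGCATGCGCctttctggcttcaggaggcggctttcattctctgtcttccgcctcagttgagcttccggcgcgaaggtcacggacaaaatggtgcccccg
Uqcr11: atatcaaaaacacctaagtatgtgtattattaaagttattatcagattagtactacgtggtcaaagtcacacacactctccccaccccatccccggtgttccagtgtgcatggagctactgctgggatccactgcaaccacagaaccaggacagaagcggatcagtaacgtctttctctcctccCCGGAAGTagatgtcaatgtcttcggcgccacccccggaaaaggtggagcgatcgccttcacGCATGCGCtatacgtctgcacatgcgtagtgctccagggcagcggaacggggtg
Cycs: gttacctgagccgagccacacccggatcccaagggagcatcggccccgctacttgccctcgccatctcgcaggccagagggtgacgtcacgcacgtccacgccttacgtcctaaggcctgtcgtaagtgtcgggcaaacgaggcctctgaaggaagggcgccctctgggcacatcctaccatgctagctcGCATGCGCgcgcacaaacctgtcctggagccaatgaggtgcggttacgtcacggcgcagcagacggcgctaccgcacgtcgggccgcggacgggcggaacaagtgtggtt

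Partners and cofactors of the members were read as a list of 23 genes, of which 6 rose and 1 fell in β-Mfn1/2DKO against Ctrl (26.1 and 4.35%, median 0.07 beside 0.06 for all genes). With 19.5 and 14.0% of genes with a mean of at least 100 called higher and lower, the total is no result about the list. Myc, whose protein binds many of the same promoters, went from 374 ± 69.4 to 1170.4 ± 383 normalized counts, a log2 fold change of 1.64 (adjusted p = 1.24e-05), and all 5 libraries lay above all Ctrl. Replicates 4 and 5, the libraries with the most acinar RNA, were the highest (1490.1 and 1671, against 943, 819.6 and 929), and Myc was still called without them. Nrip1, a corepressor of nuclear receptors, rose by 0.44 (adjusted p = 8.65e-05) and Esrrg, the relative of Esrra, by 0.37 (adjusted p = 0.00171). With depth class as a covariate Myc had 0.98 (adjusted p = 0.184) and Nrip1 0.37 (adjusted p = 0.142), neither called. Ncoa1, a coactivator of nuclear receptors, rose by 0.20 (adjusted p = 0.0157), and by 0.17 with no call under the authors' factors. Rxra, the DNA-binding partner of the PPARs, had 0.22 (adjusted p = 0.0424), a call lost without Ctrl replicate 1, 2, 3 or 6, β-Mfn2KO replicate 4 or β-Mfn1/2DKO replicate 4 or 5 (0.20 to 0.22), and under 6 of 13 alternatives. Hcfc1, a cofactor of GABP, fell by 0.28 (adjusted p = 0.00851), and total-count scaling (−0.14) and depth class (−0.15) took its call away. In β-Mfn2KO 0 of 23 were called by edgeR's quasi-likelihood test (1 at an unadjusted p under 0.05), and in β-Mfn1KO 0 (7 at an unadjusted p under 0.05).

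Upstream regulators of PGC-1 were 15 genes, of which 4 rose and 2 fell (26.7 and 13.3% beside 19.5 and 14.0% of genes with a mean of at least 100), with a median of 0.08 beside 0.06 for all genes. Kat2a, which acetylates PGC-1α, rose by 0.37 (adjusted p = 6.95e-06), Camkk2, a kinase of AMPK, by 0.44 (adjusted p = 0.000763) and Crtc2, a CREB coactivator, by 0.23 (adjusted p = 0.000327). The AMPK subunit genes Prkaa1 (−0.33, adjusted p = 0.000195) and Prkab1 (−0.19, adjusted p = 0.0191) fell, and under total-count scaling Prkab1 was at −0.05 with no call. Prkab1 lost its call without β-Mfn1/2DKO replicate 2 (−0.16), 3 (−0.15) or 4 (−0.16). Mapk14, the kinase p38α, had 0.17 (adjusted p = 0.0339) and lost its call without Ctrl replicate 1, 2, 3 or 4 or β-Mfn1/2DKO replicate 4 (0.14 to 0.17), and under 6 of 13 alternatives. With depth class as a covariate Camkk2 (0.41, adjusted p = 0.212), Crtc2 (0.15, adjusted p = 0.378), Prkaa1 (−0.16, adjusted p = 0.455) and Prkab1 (−0.08, adjusted p = 0.833) lost their calls, and Prkab1 also without β-Mfn1/2DKO replicates 4 and 5 (adjusted p = 0.129). In the single knockouts 0 of 15 were called by edgeR's quasi-likelihood test, with 0 (β-Mfn2KO) and 4 (β-Mfn1KO) at an unadjusted p under 0.05.

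A list of 20 targets of NRF1 and GABP in mtDNA maintenance, protein import and complex IV assembly had 7 higher and 3 lower (35.0 and 15.0% beside 19.5 and 14.0% of genes with a mean of at least 100), with a median of 0.13 beside 0.06 for all genes. The 6 with the smallest adjusted p were Surf1 (0.27, adjusted p = 0.00162), Cox10 (0.34, 0.00208), Tomm34 (0.31, 0.00431), Sco2 (0.61, 0.00906), Vdac1 (0.29, 0.0113) and Hccs (−0.19, 0.0125). Sco2 is uncertain, because it shares most of its exon bases with Ncaph2 and Tymp, and Hccs shares 1335 exon bases with Arhgap6 on the opposite strand. With depth class as a covariate all 6 lost their calls (adjusted p from 0.130 to 0.699), though Cox10 (0.40), Tomm34 (0.35), Vdac1 (0.29), Surf1 (0.22) and Hccs (−0.18) moved by less than 0.1 and Sco2 went to 0.31. Cox10 also lost its call with the authors' factors (0.23), and Sco2 without β-Mfn1/2DKO replicates 4 and 5 (0.41). Hccs lost its call without β-Mfn1/2DKO replicate 4 (−0.16), without replicates 4 and 5 (−0.13), with 2 groups only (−0.18) and under total-count scaling (−0.05). In β-Mfn2KO 0 of 20 were called by edgeR's quasi-likelihood test (0 at an unadjusted p under 0.05) and in β-Mfn1KO 0 (3). Of the 2 genes whose proteins share the names NRF1 and NRF2 but are other factors, Nfe2l1 rose by 0.27 (adjusted p = 0.00868, lost with the authors' factors at 0.20 and with depth class at 0.42), and Nfe2l2 had 0.11 with no call. In the single knockouts 0 of these 2 were called by edgeR's quasi-likelihood test, and 0 at an unadjusted p under 0.05.

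PPAR and fatty acid oxidation targets were 30 genes, of which 10 rose and 1 fell (33.3 and 3.33% beside 9.59 and 6.86% of all genes, or 19.5 and 14.0% of those with a mean of at least 100). Their median was 0.31 beside 0.06 for all genes. Cpt1a, the gate of fatty acids into mitochondria, went from 2134 ± 285 to 3842 ± 364 (0.85, adjusted p = 1.73e-05), with all 5 β-Mfn1/2DKO libraries above all Ctrl and all single knockouts. Plin2, a lipid droplet coat protein, rose by 1.1 (adjusted p = 0.000207), Acaa2 by 0.65 (adjusted p = 0.000279) and Slc25a20 by 0.44 (adjusted p = 0.0012). Plin2 was highest in replicates 4 and 5 (2793 and 3282), and was still called without them. Hadh fell by 0.74 (adjusted p = 7.3e-05). Fgf21 ranged over 6.23 to 17.5 in Ctrl, while the β-Mfn1/2DKO libraries had 29.8, 20.7, 25.0, 149.7 and 232, a log2 fold change of 2.90 (adjusted p = 0.00145) that was 1.08 (adjusted p = 0.0812) without replicates 4 and 5. In the single knockouts 0 of 30 were called by edgeR's quasi-likelihood test, with 0 (β-Mfn2KO) and 3 (β-Mfn1KO) at an unadjusted p under 0.05. With depth class as a covariate Cpt1a had 1.11 (adjusted p = 0.00394), and the other 5 named genes of this list lost their calls. Their values there were 0.76 for Acaa2, 0.52 for Slc25a20, 2.22 for Fgf21, 0.71 for Plin2 and −0.51 for Hadh, so the first 2 were no smaller.

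Other cells of the preparation were read by marker lists, because a bulk count cannot tell fewer cells of a type from less RNA per cell. The most abundant gene of a list is here the one with the most normalized counts per kilobase of transcript. All 8 β-cell markers fell in β-Mfn1/2DKO against Ctrl (median −1.20). They include Ins1 (−2.6), the locus that carries Cre in the knockouts. Against Ctrl 1 of the 8 was also called lower in β-Mfn2KO and 1 in β-Mfn1KO. The lowest values of the list there were −0.94 and −0.82. Acinar markers were higher for 8 of 10 (median 3.77), with Ctrb1 the most abundant, and summed to 1.67 and 3.99% of counts in β-Mfn1/2DKO replicates 4 and 5, 0.0453 to 0.0735% in replicates 1 to 3 and 0.00913 to 0.634% elsewhere. Without replicates 4 and 5 Nrf1 and Pparg were still called against Ctrl. Ctrb1 had 3.62 (adjusted p = 0.0139) and lost its call without β-Mfn1/2DKO replicate 5 (2.28), and without replicates 4 and 5 its sign turned (−0.76). Its call was also lost with the replicate number as a block (1.93), and with depth class (1.70) or the acinar score (0.12) as a covariate. Endothelial markers were higher for 5 of 5 (median 0.77), with Plvap the most abundant, and summed to 0.0171 to 0.0276% in β-Mfn1/2DKO and 0.00981 to 0.0148% in Ctrl. With depth class as a covariate Plvap had 0.92 in edgeR's quasi-likelihood test and lost its call (adjusted p = 0.096). Of 5 duct markers 2 were higher, with Spp1 the most abundant, and of 5 stellate cell and fibroblast markers 1, Pdgfrb, with Col1a2 the most abundant. Macrophage markers had 0 of 6 called by edgeR's quasi-likelihood test (0 at an unadjusted p under 0.05), with Lyz2 the most abundant and sums of 0.0521% in Ctrl replicate 6 and 0.0751% in β-Mfn2KO replicate 5 against 0.00285 to 0.0151% elsewhere. Adipocyte markers had 0 of 6 called (0 at an unadjusted p under 0.05), with Cidea the most abundant, and δ and PP markers 0 of 3 (1 at an unadjusted p under 0.05), with Ppy the most abundant. Of 5 α-cell markers 1 rose. Gcg, the most abundant, had 0.42 (adjusted p = 0.194), and 0.64 (adjusted p = 0.0144) without Ctrl replicate 2. The part of other cells, of acinar RNA and of depth in the levels of the members was not tested beyond these values.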

How the data were processed

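RNA of islets from 20 mice (6 Ctrl, 4 β-Mfn1KO, 5 β-Mfn2KO, 5 β-Mfn1/2DKO) was sequenced with paired ends. The authors trimmed reads with cutadapt 2.3, aligned them to GRCm38 with STAR 2.6.1b and deposited expected counts per gene from RSEM 1.3.1, with genes at 0 in all samples removed. They also deposited a depth-normalized signal table, used here only to recover the authors' normalization factors. Whether counting was stranded is not known.

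Counts of 28632 genes were fitted with edgeR 4.0.16 in R 4.3.3 (TMM, 1 coefficient per group, quasi-likelihood test, Benjamini-Hochberg adjustment), and called genes are those with an adjusted p under 0.05. DESeq2 1.42.0 was the second tool. Counts were brought by TMM to the mean effective library size (normalized counts), and 0.5 was added before a log. Transcripts and overlaps came from GENCODE M21, and promoter windows of 300 bases from RefSeq on GRCm38.p6. The code was tested on simulated data with known changes.

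Members and lists were chosen with earlier results of these data known. The lists were nuclear respiratory chain genes, partners and cofactors, upstream regulators, mtDNA and import targets, PPAR and fatty acid oxidation targets, factors that share a name, and markers of β, α, δ and PP, acinar, duct, endothelial, macrophage, stellate and fibroblast, and adipocyte cells. All 10 members are named. Of the chain, the 3 largest rises and 3 largest falls among calls with a mean of 100 or more are named, and the most abundant gene per length of each complex. Of the other lists, up to 6 called genes with the smallest adjusted p in β-Mfn1/2DKO against Ctrl are named, with any called in a single knockout. The 3 genes nearest each called member in log2 level, the targeted genes and the most abundant gene per length of each marker list complete them. Some genes that these rules select are not reported here, and are left out of the search for single libraries that stand apart. Promoters shown are those of called members, and of named chain genes whose window holds a motif.

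Alternatives were DESeq2 size factors in edgeR, total counts, the authors' factors, TMM without acinar and mtDNA genes, DESeq2, filterByExpr, 2 groups only, covariates for sex, replicate number, depth class and acinar score, counts thinned to the smallest total, fits without β-Mfn1/2DKO replicates 4 and 5, deep libraries only, a fold change over 1.5 as well, and each library left out in turn.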

Additional observations from a re-analysis of the deposited data

Results flagged for a closer look

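Single libraries that stood apart from the rest of their group were searched for in 63 named genes, which make 252 groups, and 17 were found. Chance gives about 1 in 20 groups. Of the 40 groups of members 1 was found: Nrf1 in β-Mfn2KO replicate 3 (2482 normalized counts). In the same library Cpt1a (3214), Acaa2 (1217), Slc25a20 (964), Nfe2l1 (24796) and Agap1 (8361) stood apart as well, Agap1 being picked for its likeness to Nrf1 over these libraries. β-Mfn2KO replicate 5 stood apart for Ndufa10 (2032), Spp1 (22422), Lyz2 (26334) and Col1a2 (4473), and β-Mfn2KO replicate 4 for Mfn1 (1807) and Ctrb1 (104807). Ctrl replicate 6 did for Lyz2 (18202) and Col1a2 (4579), β-Mfn1/2DKO replicate 4 for Spp1 (10125) and Lyz2 (4249.9), and β-Mfn1KO replicate 1 for Nfe2l1 (22703). All were kept in the fits.

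The interaction was called for 17 named genes by edgeR's quasi-likelihood test, where 5.92% of all genes were. Most of the genes other than members were named for their change in β-Mfn1/2DKO against Ctrl, which uses the same libraries, so this count is no result of its own. It was positive on the log2 scale for Nrf1 (0.82), Myc (1.68), Nrip1 (0.47), Ncoa1 (0.43), Crtc2 (0.37), Camkk2 (0.49), Tomm34 (0.43), Cpt1a (1.09), Plin2 (0.95), Acaa2 (0.63) and Slc25a20 (0.45). It was negative for Ndufa1 (−0.74), Usmg5 (−1.0), Ndufc2 (−0.43), Prkaa1 (−0.30), Hadh (−0.78) and Ins2 (−1.31). The causes were not tested.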

How the results depend on the processing

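In β-Mfn1/2DKO against Ctrl 2 members were called, 4 with total counts and 1 with depth class as a covariate, where Pparg had 0.53 (adjusted p = 0.271). Chain genes lower numbered 21, and 10 with total counts, 12 without β-Mfn1/2DKO replicates 4 and 5 and 5 with a fold change over 1.5. Chain genes higher numbered 3, and 1 with DESeq2 size factors, 12 with total counts, 8 with the authors' factors, 5 with the replicate number as a block, 0 with depth class, 7 without replicates 4 and 5 and 1 with the fold change. Leaving out 1 library gave 2 (Ctrl replicate 1) to 7 (β-Mfn1/2DKO replicate 5).

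Against β-Mfn2KO 18 chain genes were lower, and 7 with total counts, 9 with the authors' factors, 28 with DESeq2, 7 without replicates 4 and 5 and 5 with the fold change. Leaving out 1 library gave 11 (β-Mfn2KO replicate 5) to 20 (Ctrl replicate 2). The 2 higher became 10 with total counts, 6 with the authors' factors, 0 with depth class, 4 with the acinar score, 7 without replicates 4 and 5, 0 in deep libraries, 1 with the fold change, and 1 (without β-Mfn2KO replicate 1) to 8 (without β-Mfn1/2DKO replicate 5).

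Against β-Mfn1KO the 3 members called became 1 with depth class. The 40 chain genes lower became 14 with total counts, 23 without replicates 4 and 5 and 7 with the fold change, and the 0 higher became 6 with total counts, 1 with the block, and 0 (without Ctrl replicate 1) to 1 (without β-Mfn1/2DKO replicate 5). In the interaction 1 member was called, and 2 with total counts, DESeq2, filterByExpr, the acinar score and without replicates 4 and 5, and 1 (without Ctrl replicate 1) to 2 (without Ctrl replicate 3) with 1 library left out.

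Ctrb1 reversed to −0.76 without replicates 4 and 5 (adjusted p = 0.599). The chain's mean log2 level in β-Mfn1/2DKO was −0.13, and 0.008 with total counts. Of 4123 comparisons, 3945 ended on the side of the threshold they began on or moved within their tolerance, 104 lost a call, 50 counts or levels moved, 23 gained a call and 1 called value changed sign. A value with no call that changed sign, such as that of Ppargc1a, is counted with the 3945. Depth class as a covariate took the call from 30 single-gene results and left 78 as they were. The cause was not tested.

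Libraries of the same replicate number were more alike than others: over 27 pairs the mean r was 0.246 (21 above 0.1), beside −0.054 for pairs of different numbers. What the numbers stand for is not known. In every group replicates 1 and 2 are female and those from 4 upwards male, so pairs of the same number mostly share sex. With the number as a block Cycs gained a call against Ctrl (adjusted p = 0.0472), Ctrb1 lost it (adjusted p = 0.0992), and Ppard lost its call against β-Mfn1KO (0.14, adjusted p = 0.0667).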
